A study of Drosophila melanogaster with 36 samples.

Results

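The testis proteasome subunit paralogues of Drosophila melanogaster are 10 genes that each duplicate a subunit of the general 20S proteasome and are known for expression in the male germ line. They were chosen by name (Prosalpha3T, Prosalpha4T1, Prosalpha4T2, Prosalpha6T, Prosbeta2R1, Prosbeta2R2, Prosbeta4R1, Prosbeta4R2, Prosbeta5R1 and Prosbeta5R2). Measured values were not part of that rule, but earlier results of these data were known when the choice was made. Of these 10, 9 had a row among the 12698 genes measured. Prosalpha4T1 could not be matched to a row by the identifiers at hand and was not analysed here. Each paralogue was set beside the general subunit of the same position, namely Prosalpha3, Prosalpha4, Prosalpha6, Prosbeta2, Prosbeta4 or Prosbeta5.

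The 20S core particle is the chamber of the proteasome, in which ubiquitin-tagged proteins are degraded. Its outer rings are built of alpha subunits, which gate the entrance and dock the regulatory particle, and its inner rings are built of beta subunits. Among the beta subunits in these data, beta2 and beta5 carry catalytic sites of trypsin-like and chymotrypsin-like preference, whereas beta4 has no catalytic site. In the Drosophila testis several positions have a second gene, and Prosalpha6T is known to be needed for normal sperm development and male fertility.

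Start-site signal was measured by RAMPAGE, which reads the 5′ ends of capped RNA, in whole animals of the y; cn bw sp strain pooled at each of 36 stages. The stages were 24 hourly embryo windows from 0 to 24 h after egg laying, larvae of the L1 and L2 instars, L3 larvae with dark, light or clear guts, pupae aged 1 to 5 days from the white prepupal stage, and adult males and females kept for 5 days. All groups shared the strain and were untreated, and each stage gave 1 library, so no stage had a replicate. Embryos, larvae with pupae, and adults were prepared as 3 multiplexed libraries, and RNA of adults was extracted with a different reagent, so differences between those sets cannot be told apart from library. Values are RPM, reads per 1000000 reads in genic peaks. Since each RNA gives its 5′ end, RPM of different genes compare without a correction for length. The 5 pupal libraries list every minus-strand gene at 0. Pupal values are therefore given only for the 5 members on the plus strand (Prosalpha6T, Prosbeta2R1, Prosbeta4R1, Prosbeta4R2 and Prosbeta5R2), as plus-strand RPM, reads per 1000000 plus-strand reads. In whole animals, fewer cells of a type and less RNA per cell cannot be told apart.

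Depth ranged from 698702 to 16690598 reads over the 35 libraries whose reads could be recovered from the RPM steps. The shallowest larval library was that of L3 dark gut larvae with 873086 reads, in which 3 reads correspond to 3.44 RPM. Markers of spermatocytes and spermatids were set beside the label of these genes. In whole animals their levels do not show which cells express the paralogues. Of 32 such markers with a row, 31 were above 0 in the adult male and 6 in the adult female, with summed levels of 5226 and 587 RPM. Of all 12698 genes, 11604 were above 0 in the male and 9944 in the female, so the male count alone does not set the markers apart. Early germ-line markers, which the label does not need, were lower in the male, as the 4 with a row (AGO3, bam, piwi and aub) summed to 26.7 RPM in the male and 149 RPM in the female. The 4 testis soma markers (Fas3, eya, zfh1 and tj) were also lower in the male, with sums of 50.1 RPM in the male and 181 RPM in the female.

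Every one of the 9 paralogues had a single start-site peak, compared with 4 of the 6 general subunits and 59.8% of all genes. Peaks of the paralogues were 34 to 87 bases wide (median 60), those of the general subunits 103 to 250 bases (median 139.5), and the median over all genes was 82 bases. The deposited peak scores were 42 to 450 for the paralogues and 4315 to 17449 for the general subunits. Whether the number and width of peaks depend on the amount of signal was not tested. The alpha paralogues had peaks, on build dm3, at 3R:26949144-26949177 on the minus strand (Prosalpha3T, CG1736), 2R:20389734-20389800 on the minus strand (Prosalpha4T2, FBgn0017556) and 2L:13232009-13232048 on the plus strand (Prosalpha6T, CG5648). The beta2 paralogues lay at X:5702965-5703024 on the plus strand (Prosbeta2R1, FBgn0029812) and 3R:1045214-1045264 on the minus strand (Prosbeta2R2, FBgn0037296). The beta4 paralogues were neighbours on the plus strand, at 2L:2653071-2653157 (Prosbeta4R1, CG17301) and 2L:2655344-2655408 (Prosbeta4R2, CG17302), with starts 2273 bases apart. The beta5 paralogues lay at 2R:19197304-19197356 on the minus strand (Prosbeta5R1, CG9868) and 2L:17990411-17990471 on the plus strand (Prosbeta5R2, FBgn0051742). Exons and UTRs of dm3 were not used here.

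The peak of Prosbeta4R2 is also that of Or23a, an odorant receptor gene, on the same strand, and both rows hold the same RPM in 36 of 36 libraries. Reads given below for Prosbeta4R2 thus cannot be assigned to it rather than to Or23a. Such sharing of a peak touched 694 genes of the table. In a later annotation (BDGP6) the gene models of Prosalpha3T, Prosalpha6T and Prosbeta5R2 have 1 exon each, whereas those of their general counterparts Prosalpha3, Prosalpha6 and Prosbeta5 have 3, 3 and 2. Prosalpha4T2, Prosbeta2R1, Prosbeta2R2 and Prosbeta5R1 have as many exons as their counterparts, and both beta4 paralogues have 2 against 3 for Prosbeta4. Coding lengths were close to those of the general subunits for the alpha genes, at 251 codons for Prosalpha3T against 264 for Prosalpha3 and 289 for Prosalpha6T against 279 for Prosalpha6. Both beta2 paralogues were longer, with 307 codons for Prosbeta2R1 and 322 for Prosbeta2R2 against 272 for Prosbeta2. Prosbeta5R1 was also longer, with 315 codons against 282 for Prosbeta5, whereas Prosbeta5R2 had 279. Prosbeta4R1 and Prosbeta4R2 had 215 and 210 codons against 201 for Prosbeta4.

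In embryos the paralogues were at or near the limit of detection. Of the 9, 8 were at 0 RPM in all 24 libraries, among them all 3 alpha paralogues and both beta4 and both beta5 paralogues. Prosbeta2R2 had 1 read at 2 to 3 h (0.353 RPM) and 1 read at 18 to 19 h (0.240 RPM) and was at 0 in the other 22 libraries. Over the 23 embryo libraries with recovered reads, 86702102 reads in all, a count of 0 allows up to 0.0346 RPM by a limit of 3 reads. None of the 9 passed the filter on low values in the embryo course, so none was tested there.

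The general subunits of the same positions were present in all 24 embryo libraries and varied over embryogenesis. Prosalpha3 ran from 5.40 RPM (17 to 18 h) through a median of 16.3 to 118 RPM (0 to 1 h), and Prosalpha4 from 27.8 through 76.0 to 695 RPM. Prosalpha6 ranged from 1.11 to 229 RPM with a median of 26.5 RPM. The trypsin-like subunit gene Prosbeta2 had a lowest level of 13.8, a median of 81.0 and a highest level of 287 RPM. Prosbeta4 reached 942 RPM and the chymotrypsin-like subunit gene Prosbeta5 768 RPM, with medians of 163 and 98.6 RPM. Except for Prosalpha3, the highest level of each fell at 2 to 3 h. In a limma F test of a spline over the 24 hours, all 6 general subunits changed, with adjusted p from 9.59e-09 (Prosalpha4) to 0.00182 (Prosbeta5). The same test called 89.8% of the 9940 genes tested, so these calls did not set the subunits apart from other genes.

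In larvae the paralogues were seen almost entirely in the last stage. No member was above 0 in L1, L2 or L3 dark gut larvae, Prosbeta4R1 alone was above 0 in L3 light gut larvae (0.976 RPM, 8 reads), and 8 of 9 were above 0 in L3 clear gut larvae, the oldest larval stage sampled. Their summed level there was 70.6 RPM, or 396 reads, and 36.5 RPM, or 205 reads, without the peak that Prosbeta4R2 shares with Or23a. The clear gut library was not the deepest, with 5611984 reads against 14259966 in L1, 7673520 in L2 and 8197917 in light gut larvae.

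Among the alpha paralogues in clear gut larvae, Prosalpha4T2 stood at 6.59 RPM (37 reads) and Prosalpha3T at 2.85 RPM (16 reads), whereas Prosalpha6T had no read. Of the catalytic-position genes, Prosbeta2R2 was at 10.7 RPM (60 reads), Prosbeta5R2 at 7.48 RPM (42 reads), Prosbeta2R1 at 1.78 RPM (10 reads) and Prosbeta5R1 at 0.356 RPM (2 reads). The beta4 paralogues were at 34.0 RPM for Prosbeta4R2 (191 reads) and 6.77 RPM for Prosbeta4R1 (38 reads). In the clear gut library the shared Prosbeta4R2 and Or23a peak was thus the highest of the 9, and Prosalpha6T and Prosbeta5R1 were at or under 3 reads. Levels of the paralogues in this library are shown with those of the later stages in the map of RPM after hatching.

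**Figure D1:**
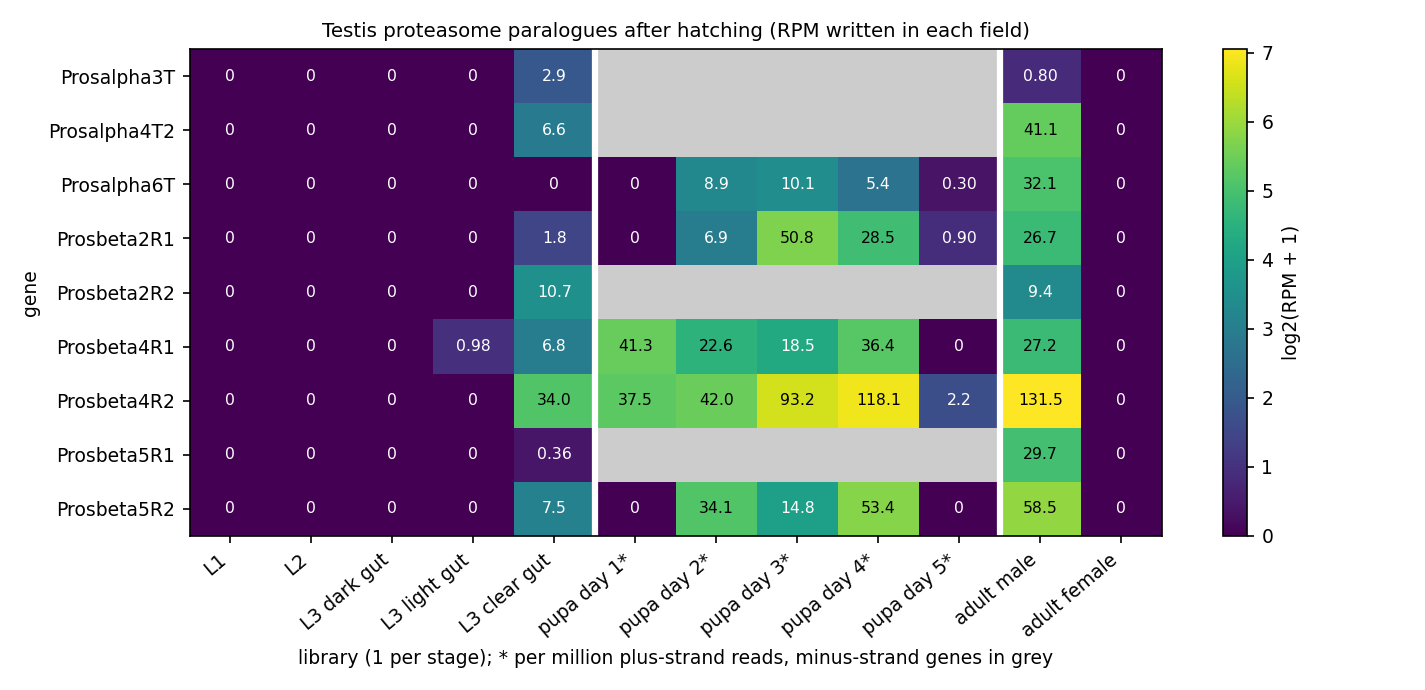
RPM of the 9 paralogues in the larval, pupal and adult libraries, with genes in rows, libraries in columns and log2(RPM + 1) as colour; pupal columns are in plus-strand RPM and their minus-strand genes are grey. Signal begins in light and clear gut L3 larvae, is at most 2.22 plus-strand RPM in pupae of day 5, and is 0 in every row of the adult female.

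More markers of spermatocytes and spermatids were above 0 in light and clear gut larvae than earlier. Of the 32 with a row, 9 were above 0 in L1, 8 in L2, 5 in dark gut, 21 in light gut and 24 in clear gut larvae, and their summed RPM was 405, 290, 72.2, 244 and 597. Of all 12698 genes, 9890, 9063, 5520, 9695 and 9968 were above 0 in the same libraries. The L1 and L2 sums were carried largely by bol, which encodes an RNA-binding protein of meiosis, at 315 and 222 RPM. Several spermatid markers that were at 0 in L1 and L2 were higher with clear guts, such as S-Lap3, a sperm leucyl aminopeptidase gene (6.34 RPM in light and 42.4 RPM in clear gut larvae), and Mst84Da, a male-specific transcript (9.51 and 60.6 RPM). Others from the same list were lower with clear than with light guts, such as djl (12.6 and 10.7 RPM), Mst87F (1.22 and 0 RPM) and bol (66.0 and 36.0 RPM). Some markers stayed at 0 in every larval library. The part of these cells in the larval levels of the paralogues was not tested.

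A comparison of the 3 L3 libraries with L1 and L2 asked whether levels changed in the last instar. None of the 9 paralogues passed the filter on low values, since 8 had at most 1 larval library above 0, so none was tested. With limma, 0.188% of 9041 genes were called higher in L3 and 0.841% lower, where a call needed a 2-fold change and an adjusted p under 0.05. None of the 6 general subunits was called (limma p 0.235 to 0.765 before and 0.735 to 0.961 after adjustment), nor in any of 11 settings that included edgeR, and their larval libraries overlapped. Prosbeta4, for example, was at 285 RPM in L1 and 181 RPM in L2, and at 3.44, 68.1 and 556 RPM in dark, light and clear gut larvae.

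Pupae carried the plus-strand paralogues at higher levels than most larvae, with a peak at day 4 and a low at day 5. Their summed level was 78.8, 114, 187, 242 and 3.42 plus-strand RPM at days 1 to 5, and 41.3, 72.5, 94.2, 124 and 1.20 without the peak of Prosbeta4R2 and Or23a. On the same scale the sum was 0 in L1, L2 and dark gut larvae, 2.18 in light gut larvae and 98.0 in clear gut larvae, or 31.4 in clear gut larvae without that peak. At day 1 only Prosbeta4R1 and Prosbeta4R2 were above 0, at days 2, 3 and 4 all 5 were, and at day 5 there were 3. The day 1 library was shallow, with 1066282 reads, so that a count of 0 there allows up to 2.81 plus-strand RPM by the limit of 3 reads. The day 5 library, in contrast, was the deepest of the series with 16690598 reads.

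Prosalpha6T, which was not seen in larvae, was at 0, 8.85, 10.1, 5.43 and 0.300 plus-strand RPM at pupal days 1 to 5. Prosbeta2R1 took the values 0, 6.88, 50.8, 28.5 and 0.899 over the same days. Its highest day was day 3, whereas Prosbeta5R2 was at 0, 34.1, 14.8, 53.4 and 0, with its highest day at day 4. Both beta4 paralogues were already present at day 1, where the others were at 0. Prosbeta4R1 was at 41.3, 22.6, 18.5, 36.4 and 0 plus-strand RPM, and Prosbeta4R2 was at 37.5, 42.0, 93.2, 118 and 2.22. In the deep library of day 5 each of the 5 was thus lower than at days 2, 3 and 4.

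Spermatocyte and spermatid markers followed a similar order. The 9 of them on the plus strand summed to 466, 1651, 2437, 3483 and 221 plus-strand RPM at pupal days 1 to 5. Accessory gland markers, 6 on the plus strand, stayed between 15.0 and 278 plus-strand RPM over the pupal days and were highest at day 5. The general subunits of these positions on the plus strand (5 genes) summed to 2949, 1857, 1440, 494 and 803 plus-strand RPM. At day 5 the paralogues and the spermatocyte markers were therefore both low, while the general subunits were not at their lowest. The part of cell number in these levels was not tested.

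**Figure D2:**
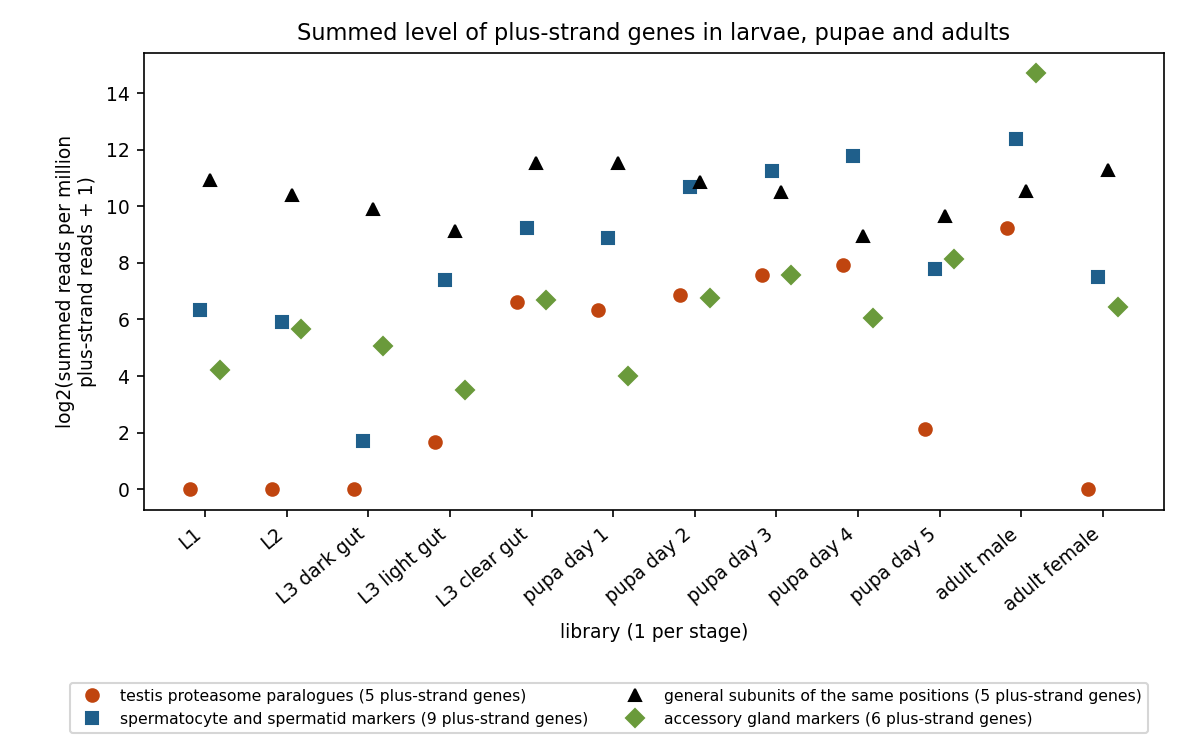
Summed level of the plus-strand genes of 4 lists in larvae, pupae and adults, as log2(plus-strand RPM + 1), with 1 point per list and library. The sum over the 5 paralogues is 98.0 plus-strand RPM in clear gut larvae, 242 in pupae of day 4, 3.42 at day 5 and 601 in the adult male, of which 31.4, 124, 1.20 and 315 remain without Prosbeta4R2, and spermatocyte markers are also low at day 5.

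Pupae were compared with larvae across plus-strand genes, 5 libraries against 5. Neighbouring stages stood in for replicates here, so the spread includes change within pupal and within larval life. A gene needed at least 2 plus-strand RPM in 3 libraries to be tested, and none of the 5 paralogues reached that in larvae, so they were tested only through pupae and their values are given as a description, without p. Prosbeta4R2 was at 58.6 ± 46.5 plus-strand RPM in pupae and 13.3 ± 29.8 in larvae (SD, n = 5 libraries each), and its only larval signal was that of clear gut larvae. The log2 change was 3.95 ± 1.38 (SE) for Prosbeta4R2, 2.79 ± 1.22 for Prosbeta4R1, 2.46 ± 1.11 for Prosbeta2R1, 2.18 ± 1.29 for Prosbeta5R2 and 1.97 ± 0.81 for Prosalpha6T. None of the 5 was among the genes called, but because of that filter this outcome is not read as a result. The ranges of pupae and larvae overlapped for each, and the share of all genes with such overlap was not counted. The limma test called 1.48% of 5404 genes higher and 1.52% lower in pupae. By edgeR's quasi-likelihood test on recovered reads no gene was called in either direction, against 1162 genes with an unadjusted limma p below 0.05.

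The general subunits of the same positions were not called between pupae and larvae (0 of 5 on the plus strand, limma p 0.687 to 0.898 before and 0.857 to 0.960 after adjustment), nor in any of 16 settings. Prosbeta2, for example, was at 294 ± 180 plus-strand RPM in pupae and 253 ± 163 in larvae (SD, n = 5 libraries each). Of the 13 general core particle genes with a row, 7 were tested and limma called none (0 also at an unadjusted p below 0.05, and 0 by edgeR), with a median log2 change of 0.19, beside a median of 0.62 over all genes tested. Of the spermatocyte and spermatid markers 8 were tested, with a median log2 change of 3.97, and 2 passed the thresholds as higher in pupae. These were dj, a sperm tail component, and Mst84Da. Neither reached 2 plus-strand RPM in 3 larval libraries, so both were tested only through pupae, like the paralogues. Of 3 accessory gland markers tested, Acp32CD, a seminal fluid protein gene, passed as higher, and it too was tested only through pupae. The passing of these 3 genes is given as a description.

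In adults all 9 paralogues were detected in the male library and none in the female library. The male library had 8790853 reads and the female library 11281352. In the female library a count of 0 allows up to 0.266 RPM by the limit of 3 reads and 0.327 RPM by the exact interval. With 1 library per sex there is no test, and intervals below are exact Poisson intervals at 95% that cover counting error only. The summed level of the 9 in the male was 357 RPM, and 225 RPM without the peak of Prosbeta4R2 and Or23a.

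Alpha paralogues spanned a wide range in the male. Prosalpha4T2 was at 41.1 RPM (361 reads, 36.9 to 45.5) and Prosalpha6T at 32.1 RPM (282 reads, 28.4 to 36.0). Prosalpha3T was at 0.796 RPM (7 reads, 0.320 to 1.64), the lowest of the 9. Genes at positions of catalytic subunits were also detected. Prosbeta5R2 was at 58.5 RPM (514 reads, 53.5 to 63.8) and Prosbeta5R1 at 29.7 RPM (261 reads, 26.2 to 33.5). Prosbeta2R1 was at 26.7 RPM (235 reads, 23.4 to 30.4) and Prosbeta2R2 at 9.44 RPM (83 reads, 7.52 to 11.7). At the noncatalytic beta4 position Prosbeta4R2 was at 131.5 RPM (1156 reads, 124 to 139) and Prosbeta4R1 at 27.2 RPM (239 reads, 23.8 to 30.9).

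In that order, from Prosbeta4R2 through Prosbeta5R2, Prosalpha4T2, Prosalpha6T, Prosbeta5R1, Prosbeta4R1, Prosbeta2R1 and Prosbeta2R2 to Prosalpha3T, the intervals of Prosalpha6T, Prosbeta5R1, Prosbeta4R1 and Prosbeta2R1 overlapped, so their order is not resolved by counting error. The others were separated from their neighbours. In the male, Prosbeta4R2 had more RPM than 88.5% of all 12698 genes, Prosbeta5R2 more than 76.0%, Prosbeta2R2 more than 38.3% and Prosalpha3T more than 12.7%. These shares count the genes at 0 in the male, as 11604 genes were above 0 there.

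Because all 9 were at 0 in the female, the male to female ratios are lower bounds, taken against 3 reads in the female library. Prosbeta4R2 was at least 494.5-fold higher in the male, Prosbeta5R2 at least 220-fold, Prosalpha4T2 at least 154-fold and Prosbeta2R2 at least 35.5-fold. The bounds of Prosalpha6T, Prosbeta5R1, Prosbeta4R1 and Prosbeta2R1 lay between 101-fold and 121-fold. Prosalpha3T was under the minimum of 2 RPM set for this comparison, and its bound was 2.99-fold. All 8 paralogues that met the minimum were past 8-fold. Over all genes, 19.0% of 10930 were past 8-fold in the male and 5.61% in the female. The male-higher genes are thus a large class, and the paralogues were among it.

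**Figure D3:**
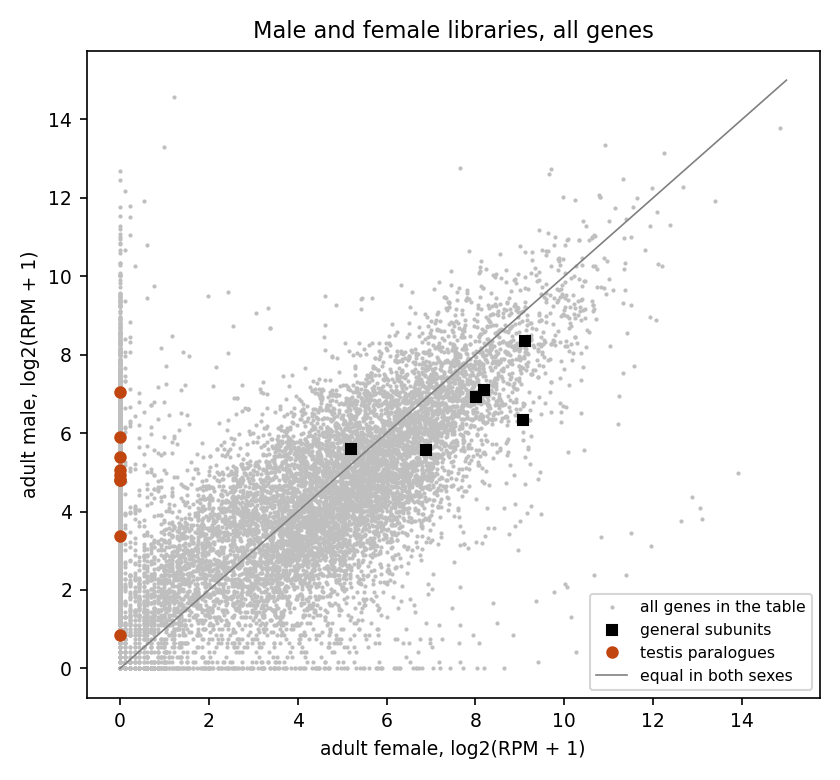
Each gene's log2(RPM + 1) in the adult male (vertical axis) against the adult female (horizontal axis), with 1 library per sex, grey points for all genes, squares for the 6 general subunits and circles for the 9 paralogues. All 9 circles lie at 0 on the female axis and between 0.796 and 131.5 RPM in the male, and 5 of the 6 squares lie below the line of equal levels.

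The general subunits went the other way at most positions. Prosbeta4 was at 79.4 RPM in the male and 539 RPM in the female, 6.79-fold higher in the female. Prosalpha4 was at 137 and 291 RPM, Prosalpha6 at 46.8 and 117 RPM, Prosbeta2 at 119 and 256 RPM and Prosbeta5 at 325 and 557 RPM in male and female. Prosalpha3 was the exception in direction, at 47.1 RPM in the male (42.7 to 51.9) and 36.0 RPM in the female (32.6 to 39.7). The counting intervals of the sexes did not overlap for any of the 6. The share of all genes with separate intervals was not counted, so this does not set the subunits apart. Scaling the 2 adult libraries by median of ratios moved the male to female log2 ratios by 0.27 and turned none of these 6 directions.

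Within the male library the paralogues made up different shares of their position. At beta4 they outnumbered the general subunit, as Prosbeta4R1 and Prosbeta4R2 together had 1395 reads against 698 of Prosbeta4, or 66.7% of the reads (64.6 to 68.7, exact Clopper-Pearson 95% interval). Without Prosbeta4R2, whose reads are shared with Or23a, Prosbeta4R1 alone made up 25.5% beside Prosbeta4 (22.7 to 28.4). At alpha6 the share of Prosalpha6T was 40.7% (37.0 to 44.5), and at alpha4 that of Prosalpha4T2 was 23.1% (21.0 to 25.2). The catalytic positions had close shares, 23.3% (21.0 to 25.6) for both beta2 paralogues together and 21.3% (20.0 to 22.7) for both beta5 paralogues. At alpha3 the share of Prosalpha3T was 1.66% (0.671 to 3.40). At alpha4 the Prosalpha4T1 reads are missing from the count. Paralogues resemble their general subunits in sequence, and the sources used here do not say how reads matching more than 1 place were treated, so shares may carry an error from read assignment.

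**Figure D4:**
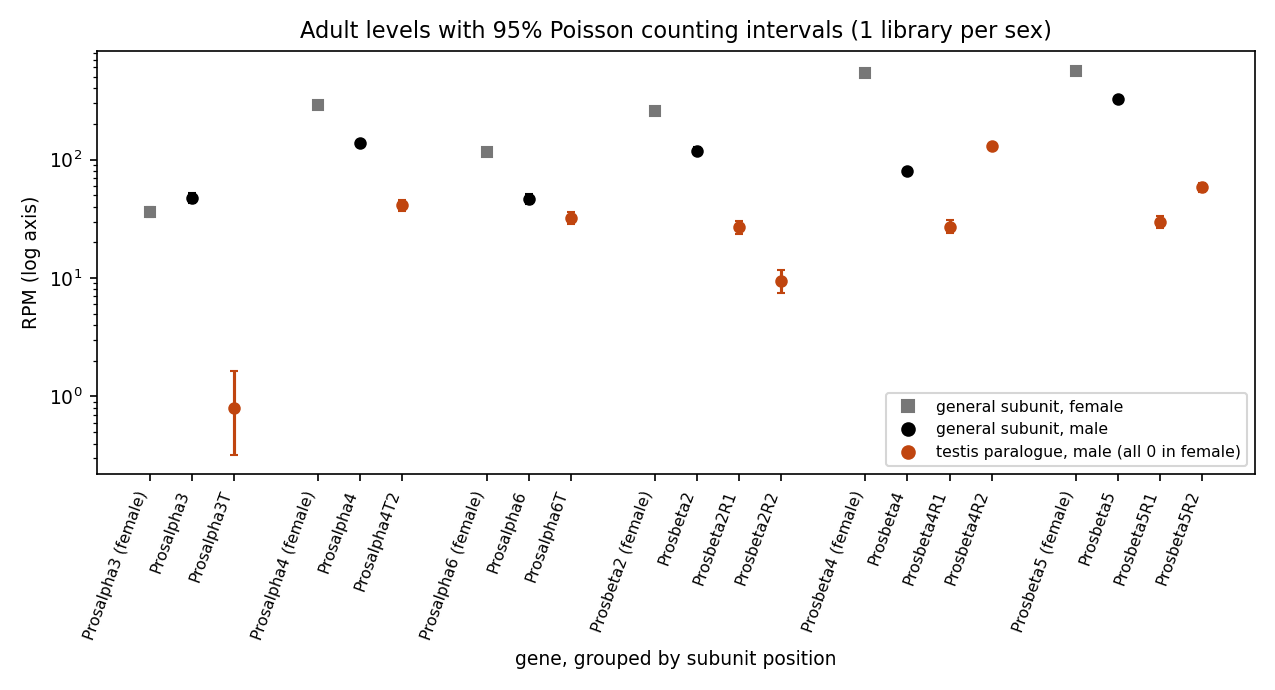
Levels of the general subunits in the female and male and of the paralogues in the male, grouped by subunit position, in RPM on a log axis, with bars for 95% Poisson counting intervals and 1 library per sex. Only at beta4 does a paralogue row (Prosbeta4R2, 131.5 RPM, shared with Or23a) stand above the general subunit in the male (79.4 RPM).

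Shares were lower in clear gut larvae than in the male at most positions. They were 1.65% for Prosalpha4T2, 4.58% for the beta2 paralogues together, 6.83% for the beta4 paralogues (1.20% for Prosbeta4R1 alone) and 1.24% for the beta5 paralogues, and Prosalpha6T was at 0 of 751 reads, which allows up to 0.399% by the limit of 3 reads and 0.490% by the exact interval. At alpha3 the share was 3.05% (1.75 to 4.90), with an interval overlapping that of the male. The balance between duplicates of a position also differed. At beta2, Prosbeta2R2 had 60 reads and Prosbeta2R1 10 in clear gut larvae, and 83 and 235 in the male. At beta5, Prosbeta5R1 had 2 reads and Prosbeta5R2 42 in clear gut larvae, and 261 and 514 in the male.

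Male to clear gut ratios of RPM show the same spread among members. The ratio was 0.279 for Prosalpha3T (0.0972 to 0.718), 0.883 for Prosbeta2R2 (0.626 to 1.25), 3.86 for Prosbeta4R2 (3.31 to 4.53) and 4.02 for Prosbeta4R1 (2.84 to 5.81). It was 6.23 for Prosalpha4T2 (4.43 to 8.99), 7.81 for Prosbeta5R2 (5.70 to 11.0), 15.0 for Prosbeta2R1 (8.01 to 31.7) and 83.3 for Prosbeta5R1 (22.8 to 692, from 2 larval reads). Clear gut larvae were not sorted by sex in the labels, and these libraries belong to different multiplexed sets, so only the differences between members, and not the size of the ratio, can be read from these values.

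In pupae, where plus-strand pairs could be followed, shares varied from day to day and so did the general subunits. Prosalpha6T made up 5.83%, 32.8%, 5.23% and 0.466% of the reads at alpha6 from day 2 to day 5. At day 3 that share rested on 19 reads beside 39 of Prosalpha6, which was at 20.6 plus-strand RPM, against 143 at day 2 and 98.4 at day 4. Prosbeta5R2 made up 4.47% at day 2, 2.46% at day 3 and 69.6% at day 4 (236 reads beside 103). Prosbeta5 was then at 23.3 plus-strand RPM, against 588 at day 3 and 307 at day 5. Prosbeta2R1 made up 1.82%, 19.8%, 13.6% and 0.651% at beta2 from day 2 to day 5, beside Prosbeta2 levels of 371, 205, 181 and 137 plus-strand RPM. High pupal shares at alpha6 and beta5 thus coincided with low values of the general subunit in that library. They also fell on the day of the paralogue's own highest pupal level, day 3 for Prosalpha6T and day 4 for Prosbeta5R2.

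**Figure D5:**
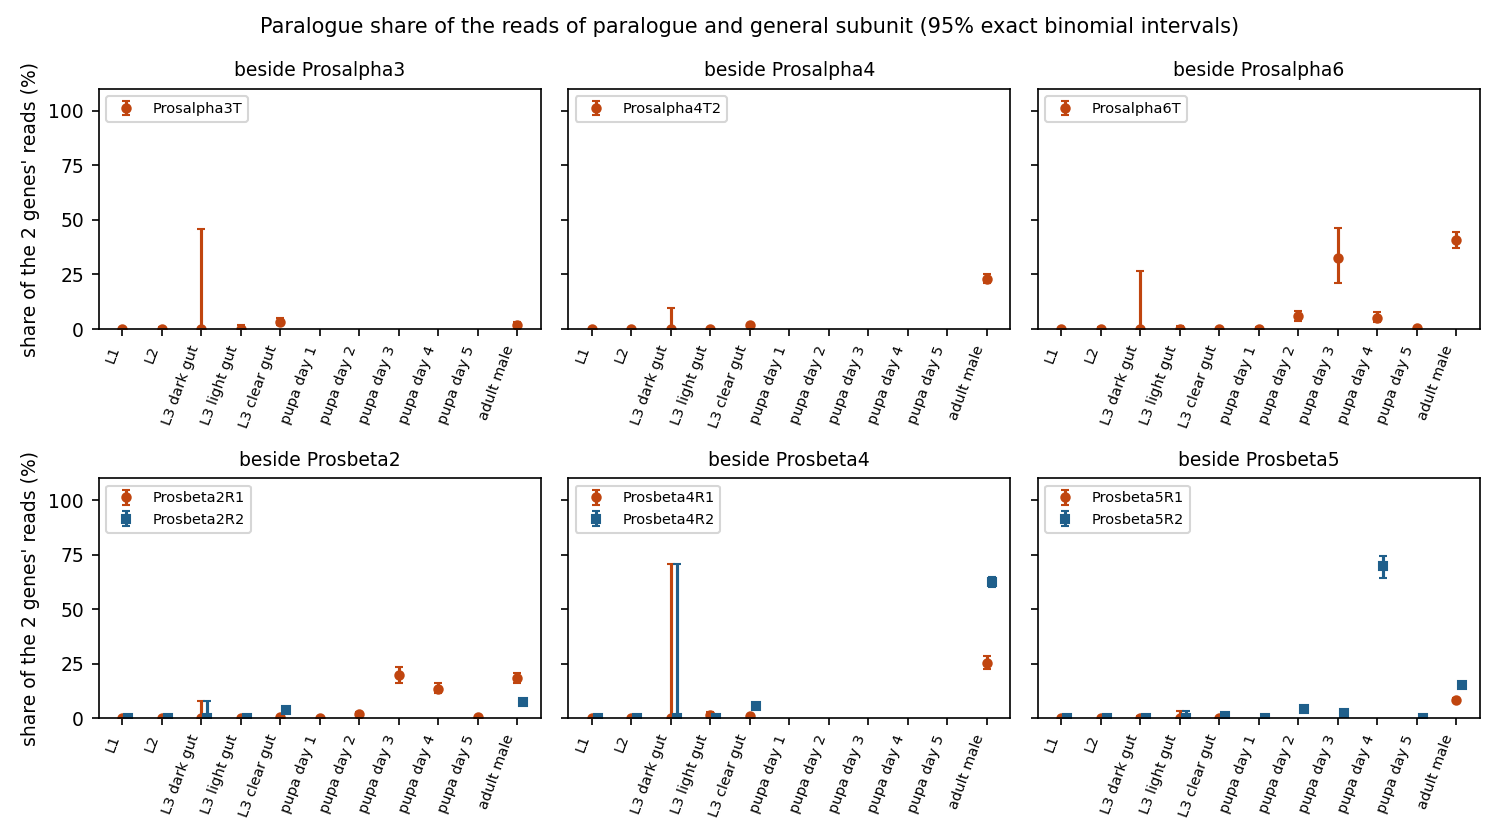
Share of each paralogue in the reads of the paralogue and its general subunit (vertical axis, %) by library, in 1 panel per subunit position, with 95% exact binomial intervals and no pupal points for pairs with a minus-strand gene. Shares in the male run from 1.66% (Prosalpha3T) to 62.4% (Prosbeta4R2, shared with Or23a), and the 69.6% of Prosbeta5R2 at pupal day 4 falls in the library where Prosbeta5 is at 23.3 plus-strand RPM.

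Other genes of the proteasome gave a comparison in the adults. Of the 13 general core particle genes with a row, 10 were higher in the female and 3 in the male, with a median log2 ratio of male to female of -0.59. Of 17 general regulatory particle genes, 15 were higher in the female (median -0.73), beside a median of 0.06 over all genes, and none of either list was past 8-fold. Rpt5, an ATPase of the regulatory base, was at 381 RPM in the male and 730 RPM in the female. The 4 paralogues of regulatory particle genes were all higher in the male, beside 51.1% of all genes tested, and 3 were past 8-fold, beside 19.0%. Rpn12R, a duplicate of a lid subunit gene, was at 130 RPM in the male and 0.355 RPM in the female. Rpt4R was at 8.19 and Rpt6R at 5.69 RPM in the male, both at 0 in the female, and Rpt3R was at 16.8 RPM in the male and 3.01 RPM in the female.

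Genes that activate, inhibit or assemble the proteasome gave 5 of 7 higher in the male, none past 8-fold, beside 51.1% of all genes. The smallest of these differences was that of ntc, 20.8 RPM in the male and 20.3 RPM in the female. Pomp, which encodes an assembly factor of the core particle, was at 149 RPM in the male and 81.9 RPM in the female, and the proteasome regulator PI31 at 114 and 51.9 RPM. Of the spermatocyte and spermatid markers 25 of 30 were past 8-fold in the male, as were 17 of 17 accessory gland markers, beside 19.0% of all genes tested. All 19 markers of the ovary, egg coat and yolk were past 8-fold in the female, beside 5.61% of all genes tested. The 4 early germ-line and the 4 testis soma markers were all higher in the female, with median log2 ratios of male to female of -3.85 and -1.46. The male and female libraries thus differed in markers of reproductive tissue, in both directions. The part of that tissue's share of RNA in the levels of the paralogues was not tested.

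Likeness of pattern was taken across the 31 libraries outside pupae, as Pearson r of log2(RPM + 1) with the mean over the 9 paralogues. Only genes with a symbol other than a CG or CR number were ranked, 6212 of the 11089 genes with at least 10 RPM in a library. Among these the closest were c-cup (r 0.9999), S-Lap7, COX6AL2, Tssk and ND-B14.5AL (r 0.9997 each), and closer genes without such a symbol may exist. Each was at 0 in the female and in all embryos. The level of c-cup was 50.2 RPM in the male and 6.24 RPM in clear gut larvae, and that of COX6AL2 196 and 14.3 RPM. This likeness rests on few libraries with signal, as 695 of 11089 genes had r above 0.95, and none of the 5 was among the closest 5 by Spearman's rho or without the adult male library. Members themselves had r from 0.757 (Prosalpha3T) to 1.00 (Prosbeta5R2) with their mean, which they help to make.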

How the data were processed

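RAMPAGE values per gene were deposited by the authors in RPM for 12698 genes, a gene's peaks being joined in 1 value. Columns sum to 1000000 RPM. Peaks carry a score, 42 to 450 for the paralogues, that the authors deposited without saying what it means. Per the submitters' processing notes, STAR and Cufflinks were used on dm3. Their versions and roles, and the handling of duplicate and multiply matching reads, are not given in the sources used here. Whole reads were recovered from RPM steps (tolerance 0.01 read) in 35 libraries, not in that of 16 to 17 h.

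Identifiers were matched to symbols for 12089 genes. Members, lists and tests were chosen with earlier results of these data known. All members and their general subunits are named, with at most 4 genes of each other list by male RPM. The 5 genes of closest pattern are also named, among genes with at least 10 RPM and a symbol other than a CG or CR number. Or23a is named for its shared peak, ntc for its small difference, and djl and Mst87F for their lower level with clear guts, all after the values were seen.

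Tests used limma 3.58.1 in R 4.3.3 on log2(RPM + 1), with a trend and Benjamini-Hochberg adjustment over all genes tested. Genes were called at an adjusted p below 0.05 and at least 2-fold. Fold changes of low genes are understated on that scale. edgeR 4.0.16 on recovered reads, other pseudocounts, filters and scaling, and each library left out were alternatives. Programs were tested on simulated data. Adult libraries were compared by ratio alone, past 8-fold with at least 2 RPM in a sex. Libraries are neighbouring stages, not replicates, and PCR reads are not independent molecules, so intervals and floors (3 reads) cover counting error only. Transposon values, the list of all peaks and the coverage tracks were not used here.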

Additional observations from a re-analysis of the deposited data

Results flagged for a closer look

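In larvae, clear gut L3 animals stood apart from the other 4 libraries for 7 paralogues: their level was 2.85 RPM for Prosalpha3T, 6.59 RPM for Prosalpha4T2, 1.78 RPM for Prosbeta2R1, 10.7 RPM for Prosbeta2R2, 34.0 RPM for Prosbeta4R2 (shared with Or23a), 0.356 RPM for Prosbeta5R1 and 7.48 RPM for Prosbeta5R2, against 0 in each of the others. The value of Prosbeta5R1 is 2 reads. In embryos, Prosbeta2R2 had a read at 2 to 3 h (0.353 RPM) and another at 18 to 19 h, where its level was 0.240 RPM, which stood apart from libraries at 0. Among pupae, Prosbeta4R1 was at 0 on day 5, with 18.5 plus-strand RPM on the next lowest day.

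General subunits also had libraries far below their neighbours. Prosalpha6 was at 1.11 RPM at 12 to 13 h (next lowest 20.8 RPM of its 4 h period) and 3.12 RPM at 22 to 23 h (next lowest 11.3 RPM). Prosbeta5 was at 12.7 RPM at 8 to 9 h (next 110 RPM), 25.6 RPM at 12 to 13 h (next 95.7 RPM), 6.19 RPM at 19 to 20 h (next 58.8 RPM) and 14.0 RPM in L3 light gut larvae (next 234 RPM). These values are 1 and 4 reads for Prosalpha6, and 150, 23 and 6 reads for Prosbeta5 in the 3 embryo libraries. Of 62 sets of 1 gene in 1 period, 16 had such a library. In 9 of the 16 all other libraries were at 0, where a single read is enough, so a chance rate of about 1 in 20 does not apply to them. That rate does not hold for the other sets either, since each is made of successive stages and not replicates.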

How the results depend on the processing

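No paired analysis was possible because the labels give no replicate numbers and each stage has 1 library. All 8 paralogues stayed past 8-fold after scaling and with RPM + 1, and past 4-fold at that threshold; with at least 10 RPM there were 7 tested and past it. At 4-fold, 2651 genes were higher in the male and 1346 in the female. For L3 against L1 and L2 larvae, a pseudocount of 0.1 gave 4 genes higher and 3 lower, and leaving out 1 library gave 0 to 52 higher and 0 to 152 lower, with 0 without light gut and the most without dark gut larvae. For pupae against larvae, a pseudocount of 0.1 gave 35 higher and 46 lower, no filter on low values 32 and 48, and edgeR 0 and 0; leaving out 1 library gave 5 to 418 higher and 28 to 189 lower, with the fewest without pupal day 3. The cause of these shifts was not tested. The 6 general subunits were called over embryo hours in all 31 settings, and the course was called for 8641 to 8944 genes without 1 library and 8228 by edgeR without the 16 to 17 h library, a setting chosen after seeing the data. For likeness of pattern, 0 of 5 genes were shared with Spearman's rho and 0 without the male library. Depth limits the absence of paralogues in dark gut larvae and pupae of day 1, where 3 reads are 3.44 RPM and 2.81 plus-strand RPM.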
